A study of Arabidopsis thaliana with 4 samples.

Results

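The gibberellin receptors and DELLA repressors form the switch through which gibberellin, a growth hormone, acts in Arabidopsis. DELLA proteins are nuclear regulators of the GRAS family that hold back growth, germination and flowering, and gibberellin bound to a GID1 receptor brings the receptor onto the DELLA protein. The F-box protein SLY1 then recognizes the complex as part of an SCF ubiquitin ligase, and the DELLA protein is degraded. DELLA proteins also activate the genes of some receptors, which makes the pathway buffer itself. Since DELLA proteins are controlled largely through their degradation, their mRNA levels do not give the amounts of protein, which were not measured here.

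The 9 genes described are the 5 DELLA genes *GAI*, *RGA*, *RGL1*, *RGL2* and *RGL3*, the 3 receptor genes *GID1A*, *GID1B* and *GID1C*, and the F-box gene *SLY1*. They were taken by their gene identifiers from the 33854 genes of the deposited tables, and all 9 passed the filter on low values with 20142 genes in all. The 4 libraries hold poly-A RNA of whole 12-day-old seedlings, which were grown on Murashige and Skoog medium at 22 °C with 16 h of light and 8 h of dark. Wild-type Col-0 and *35S-COLDAIR* seedlings in the Col-0 background gave 2 libraries each, and *35S-COLDAIR* expresses *COLDAIR*, a noncoding RNA encoded within the first intron of *FLC*, from the constitutive *CaMV 35S* promoter. As the study describes it, the transgenic seedlings came from a single late-flowering line, so an effect of the transgene and an effect of that line cannot be told apart. How many seedlings made up a library is not given, so the p-values below measure the spread between these libraries, which may be partly technical.

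Levels are in FPKM (fragments mapped per kilobase of transcript, scaled to the depth of the library), so that genes of different length can be compared. The tables hold no fragment numbers, but the lowest values of long genes cluster at what 1 fragment is worth, which puts the depth at an estimated 20500000 to 24400000 fragments per library. The floral repressor gene *FLC* was at 2.05 and 1.13 FPKM in the Col-0 libraries, against 43.4 and 37.6 FPKM in those of *35S-COLDAIR*. The log2 fold change of this gene was 4.02, with an adjusted p of 0.0835 from limma and of 0.00349 with the replicate number as a block. Of these fits, the one with the block called the gene that marks the line and the one without it did not. The 5 green shoot markers summed to between 52400 and 58000 FPKM and the 6 root markers to between 776 and 1010 FPKM. Most of the root sum was *PYK10*, at 723 to 942 FPKM. The lowest root sum was that of replicate 2 of *35S-COLDAIR*. In that library *PYK10*, *COBL9*, *RHD6*, *PHT1.1* and *CASP1* were below replicate 1 of the same genotype, and *SHR* was not. The 6 seed markers summed to 34.0 FPKM in replicate 1 of Col-0 and to between 8.33 and 15.6 FPKM in the other libraries, with *LEC1* listed at 0 in all of them. The 4 floral organ markers summed to between 2.97 and 6.24 FPKM. In whole seedlings, fewer cells of a type and less RNA per cell cannot be told apart.

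The DELLA genes are copies of one another, and the windows printed here show how far their coding sequences have diverged at the place where the receptor binds. *GAI* (AT1G14920) lies on chromosome 1 from 5148982 to 5151415 on the plus strand, *RGA* (AT2G01570) on chromosome 2 from 255247 to 257568 on the minus strand, and *RGL1* (AT1G66350) on chromosome 1 from 24748105 to 24750186 on the plus strand. *RGL2* (AT3G03450) lies on chromosome 3 from 819337 to 821652 and *RGL3* (AT5G17490) on chromosome 5 from 5763989 to 5766246, both on the minus strand. Each of the 5 genes has 1 exon in the RefSeq annotation of TAIR10.1, and no other annotated gene overlaps it. Capitals mark the codons of the DELLA motif of *GAI*, which gave the family its name, and the matching codons of the other 4 genes, read 5′ to 3′ on the coding strand.
GAI: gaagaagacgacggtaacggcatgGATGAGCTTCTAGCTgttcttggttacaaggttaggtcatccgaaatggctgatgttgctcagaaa
RGA: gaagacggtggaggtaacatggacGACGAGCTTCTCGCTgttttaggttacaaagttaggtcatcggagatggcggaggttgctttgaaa
RGL1: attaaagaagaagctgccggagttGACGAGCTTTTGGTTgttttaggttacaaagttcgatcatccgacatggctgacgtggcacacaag
RGL2: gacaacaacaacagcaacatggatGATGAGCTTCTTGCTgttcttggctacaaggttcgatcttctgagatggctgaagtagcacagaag
RGL3: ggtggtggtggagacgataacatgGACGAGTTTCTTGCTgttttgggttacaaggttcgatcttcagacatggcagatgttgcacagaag
The windows lie at chr1:5149471-5149560, chr2:257150-257239, chr1:24748396-24748485, chr3:821085-821174 and chr5:5765723-5765812, in the order printed. Against *GAI*, the window differed at 22 of 90 bases in *RGA*, 27 in *RGL1*, 24 in *RGL2* and 27 in *RGL3*. Within the capitals, 2 bases differed in *RGA*, 4 in *RGL1*, 1 in *RGL2* and 3 in *RGL3*. The 5 residues encoded by the capitals were those of *GAI* in *RGA* and *RGL2*, and not in *RGL1* and *RGL3*.

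The receptor genes have 2 exons each. *GID1A* (AT3G05120) lies on chromosome 3 from 1430363 to 1432844, *GID1B* (AT3G63010) on chromosome 3 from 23289243 to 23291486 and *GID1C* (AT5G27320) on chromosome 5 from 9628990 to 9631291, all on the plus strand and free of overlapping annotated genes. The windows below are part of their second exons, and capitals mark the codons of the His-Gly-Gly motif that GID1 proteins share with hormone-sensitive lipases, the enzyme family they are related to.
GID1A: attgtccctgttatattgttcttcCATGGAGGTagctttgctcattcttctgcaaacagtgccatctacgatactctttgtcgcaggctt
GID1B: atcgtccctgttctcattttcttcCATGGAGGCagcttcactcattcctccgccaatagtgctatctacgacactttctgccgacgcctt
GID1C: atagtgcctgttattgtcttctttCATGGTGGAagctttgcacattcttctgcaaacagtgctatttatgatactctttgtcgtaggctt
These windows lie at chr3:1431562-1431651, chr3:23290234-23290323 and chr5:9630018-9630107. Against *GID1A*, 20 of 90 bases differed in *GID1B* and 13 in *GID1C*, and the motif residues were identical in all 3. *SLY1* (AT4G24210) lies on chromosome 4 from 12563279 to 12564482 on the plus strand, with 1 exon.

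The copies share few stretches of 50 bases, a length that was set for this comparison. How the reads of these libraries mapped to the copies was not tested. By their translated coding sequences, *GAI* and *RGA* were the most alike DELLA pair with 83.8% identical residues, followed by *RGL2* and *RGL3* with 76.4%, and the other 8 pairs had between 62.8% and 69.7%. *GID1A* and *GID1C* had 86.0% identical residues, against 69.2% for *GID1A* and *GID1B* and 71.4% for *GID1B* and *GID1C*. None of the 50-base stretches within the exons of the 9 genes occurred a second time in the TAIR10.1 genome. A second count allowed up to 2 mismatches, the limit that the methods give for TopHat. The submitters' processing notes name STAR 2.5.2b instead, so this limit may not be that of the deposited values. With it, 3 of the 2385 50-base windows of the *GAI* transcript matched *RGA*. Of the 1865 windows of the *GID1A* transcript, 19 matched *GID1C*, while the other 11 pairs within the families had 0. The longest exact run shared by any of these pairs was 35 bases.

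*RGA* and *GAI* were the most abundant of the 9 transcripts. Here and below, the value of replicate 1 stands before that of replicate 2. *RGA* was at 62.3 and 58.0 FPKM in the Col-0 libraries, against 71.2 and 61.1 FPKM in those of *35S-COLDAIR*. *GAI* was at 41.7 and 61.4 FPKM in the Col-0 libraries, against 47.8 and 64.0 FPKM in those of *35S-COLDAIR*. Both genes stood between percentiles 82.2 and 89.6 of the tested genes of a library. *RGA* and *GAI* together made up between 90.9% and 92.7% of the summed DELLA level in the 4 libraries.

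The 3 *RGL* genes were expressed at far lower levels. *RGL1*, a DELLA gene known mainly from floral development, was at 4.25 and 4.04 FPKM in the Col-0 libraries, against 4.79 and 4.41 FPKM in those of *35S-COLDAIR*. *RGL2*, the main DELLA repressor of seed germination, was at 2.87 and 1.76 FPKM in the Col-0 libraries, against 3.78 and 2.18 FPKM in those of *35S-COLDAIR*. *RGL3*, which has been linked to jasmonate responses, was at 3.24 and 4.85 FPKM in the Col-0 libraries, against 3.14 and 3.19 FPKM in those of *35S-COLDAIR*. From the step of 1 fragment, these levels rest on an estimated 90 to 241 fragments per gene and library, with a counting error of 6.44% to 10.6%, against 2080 to 3795 fragments and 1.62% to 2.19% for *GAI* and *RGA*.

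Of the receptors, *GID1A* and *GID1C* carried most of the transcripts. *GID1A* was at 18.2 and 22.6 FPKM in the Col-0 libraries, against 21.4 and 25.7 FPKM in those of *35S-COLDAIR*. *GID1C* was at 21.7 and 17.2 FPKM in the Col-0 libraries, against 18.7 and 15.3 FPKM in those of *35S-COLDAIR*. *GID1B*, whose protein binds gibberellin with the highest affinity of the 3, was at 5.36 and 5.37 FPKM in the Col-0 libraries, against 6.04 and 5.68 FPKM in those of *35S-COLDAIR*. *GID1A* and *GID1C* together held between 86.9% and 88.2% of the summed receptor level. *SLY1*, the F-box gene, was at 17.6 and 25.6 FPKM in the Col-0 libraries, against 21.5 and 25.1 FPKM in those of *35S-COLDAIR*, close to the level of *GID1A*. *SNE*, a close relative of *SLY1* that can also act on DELLA proteins, was at 2.80 and 2.72 FPKM in the Col-0 libraries, against 3.07 and 2.31 FPKM in those of *35S-COLDAIR*.

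**Figure D1:**
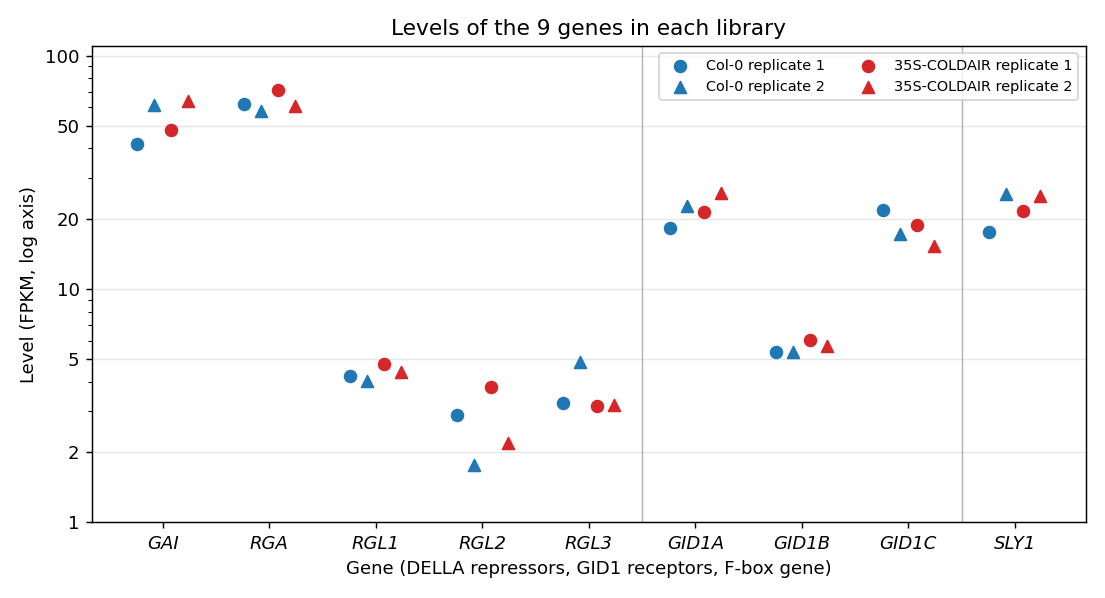
Level of each of the 9 genes in FPKM on a log axis, with blue for Col-0, red for *35S-COLDAIR*, circles for replicate 1 and triangles for replicate 2. *RGA* and *GAI* lie between 41.7 and 71.2 FPKM in every library, and the 3 *RGL* genes between 1.76 and 4.85 FPKM. Replicate 2 is above replicate 1 in both genotypes for *GAI*, *RGL3*, *GID1A* and *SLY1*, for *RGL3* in *35S-COLDAIR* only with 3.19 against 3.14 FPKM.

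In order of their mean over the 4 libraries, the genes were *RGA* at 63.2, *GAI* at 53.7, *SLY1* at 22.4, *GID1A* at 22.0, *GID1C* at 18.2, *GID1B* at 5.61, *RGL1* at 4.37, *RGL3* at 3.61 and *RGL2* at 2.65 FPKM. The ranges of the libraries were apart at 3 of the 8 steps of this order, from *GAI* to *SLY1*, from *GID1C* to *GID1B* and from *GID1B* to *RGL1*. At the other 5 steps the ranges overlapped. *RGA* was above *GAI* in 2 of 4 libraries, *SLY1* above *GID1A* in 2 of 4, and *GID1A* above *GID1C* in 3 of 4, so these orders did not exceed the spread between libraries.

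None of the 9 genes passed the test of *35S-COLDAIR* against Col-0 across all genes, which does not show that their levels were equal. The comparison was made with limma on log2(FPKM + 1) over the 4 libraries, and each log2 fold change below is on that scale, on which changes of weakly expressed genes appear smaller than they are. With Benjamini-Hochberg adjustment over all 20142 tested genes, the adjusted p from limma was 1.0 for each of the 9 genes. Over all tested genes, 1 gene (0.00496%) was called higher and 1 gene (0.00496%) was called lower at an adjusted p under 0.05. At shares this low, 0 calls among 9 genes says little about these genes. At an unadjusted p under 0.05, limma gave 0 of the 9 genes in either direction, against 1.05% of the tested genes higher and 1.54% lower. No other tool was run across genes, since FPKM values are not counts.

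The estimates for the DELLA genes were small. The log2 fold change was 0.13 for *GAI* (95% confidence interval -0.51 to 0.76, from limma), 0.13 for *RGA* (-0.15 to 0.41), 0.12 for *RGL1* (-0.18 to 0.43), 0.26 for *RGL2* (-0.50 to 1.01) and -0.26 for *RGL3* (-0.77 to 0.25). On the FPKM + 1 scale, the interval of *RGA* runs from 0.904-fold to 1.33-fold and that of *RGL1* from 0.880-fold to 1.35-fold. The interval of *GAI* is wider, from 0.703-fold to 1.69-fold, and that of *RGL2* extends to 2.01-fold. A change of *GAI* or *RGL2* of that size would therefore not have been told from the spread between libraries. The direction for *GAI* rested on single libraries, and the value was -0.15 without replicate 1 of Col-0 and -0.08 without replicate 2 of *35S-COLDAIR*. For *RGL2* it was -0.04 without replicate 1 of *35S-COLDAIR*.

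The receptor genes gave estimates of similar size. The log2 fold change was 0.20 for *GID1A* (95% confidence interval -0.20 to 0.60, from limma), 0.11 for *GID1B* (-0.17 to 0.39) and -0.18 for *GID1C* (-0.62 to 0.25). *SLY1* had a value of 0.12 (-0.42 to 0.66), with 0.28 within replicate 1 and -0.03 within replicate 2, and -0.14 without replicate 1 of Col-0. The median over the 9 genes was 0.12, against 0.00 over all tested genes, whose quartiles were -0.09 and 0.09.

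**Figure D2:**
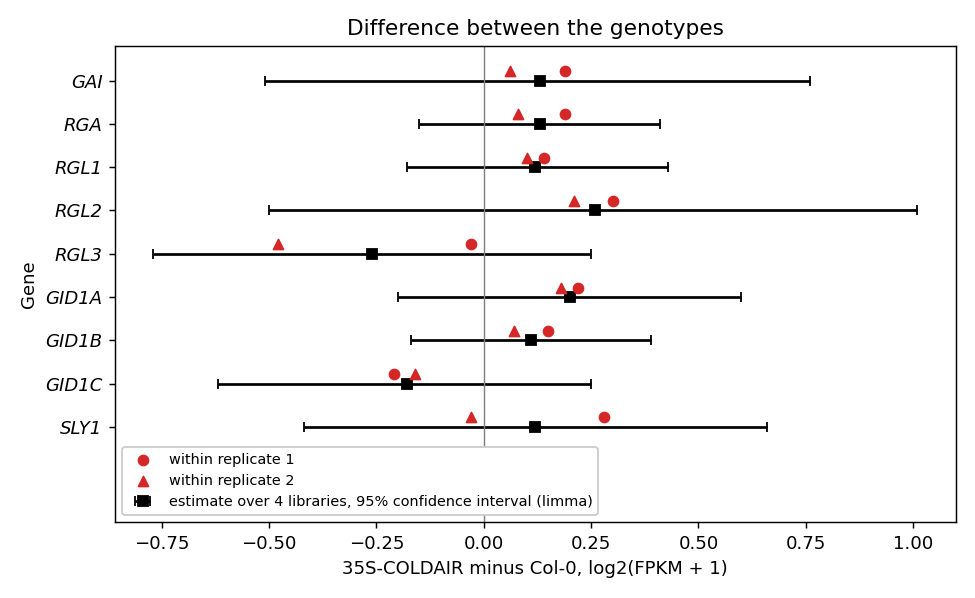
Difference between *35S-COLDAIR* and Col-0 in log2(FPKM + 1) for the 9 genes, with squares for the estimate over 4 libraries, bars for its 95% confidence interval from limma, and red symbols for the difference within replicate 1 (circles) and within replicate 2 (triangles). Every interval includes 0, and the estimates run from -0.26 for *RGL3* to 0.26 for *RGL2*.

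Compared within the same replicate number, the signs were mostly shared. *GAI*, *RGA*, *RGL1*, *RGL2*, *GID1A* and *GID1B* were higher in *35S-COLDAIR* within both replicate numbers, which is 6 of the 9 genes against 28.2% of all tested genes. *RGL3* and *GID1C* were lower within both, 2 of the 9 genes against 27.0%. The 9 genes were chosen with earlier results of these data known, and no label says that a replicate number marks a shared batch. The counts therefore describe these libraries only. The differences were 0.22 and 0.18 for *GID1A* and -0.21 and -0.16 for *GID1C* within replicates 1 and 2, so the pair of most alike receptors went in opposite directions by similar amounts. For *RGL3* nearly all of the difference came from replicate 2, with -0.48 against -0.03 in replicate 1. The groups did not overlap for *RGL1* and *GID1B*, which were higher in *35S-COLDAIR*, against 14.8% of all tested genes, nor for *RGL3*, which was lower, against 14.3%. For *RGL3*, the lower Col-0 library at 3.24 FPKM and the *35S-COLDAIR* libraries at 3.14 and 3.19 FPKM differed by less than the estimated counting error of about 8.17% in that Col-0 library. The gaps of the other genes were also smaller than the counting errors. For *RGL1*, the nearest libraries were Col-0 at 4.25 FPKM (error 7.43%) and *35S-COLDAIR* at 4.41 FPKM (6.68%). For *GID1B*, they were Col-0 at 5.37 FPKM (6.44%) and *35S-COLDAIR* at 5.68 FPKM (5.95%).

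The summed levels of the families differed little. The 5 DELLA genes summed to 114 and 130 FPKM in Col-0 and to 131 and 135 FPKM in *35S-COLDAIR*, a log2 difference of 0.12 with 0.19 within replicate 1 and 0.05 within replicate 2. The 3 receptor genes summed to 45.3 and 45.1 FPKM in Col-0 and to 46.2 and 46.6 FPKM in *35S-COLDAIR*, a log2 difference of 0.04. For both sums the *35S-COLDAIR* libraries were above the Col-0 libraries, and the two-sided exact permutation test gave p = 0.333, the smallest value that 2 libraries against 2 allow. The summed receptor level divided by the summed DELLA level gave 0.396 and 0.347 for Col-0, against 0.353 and 0.346 for *35S-COLDAIR* (log2 difference -0.09, two-sided exact permutation p = 0.667). Replicate 1 of Col-0 alone stood apart in this ratio, and the log2 difference was 0.01 without it.

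**Figure D3:**
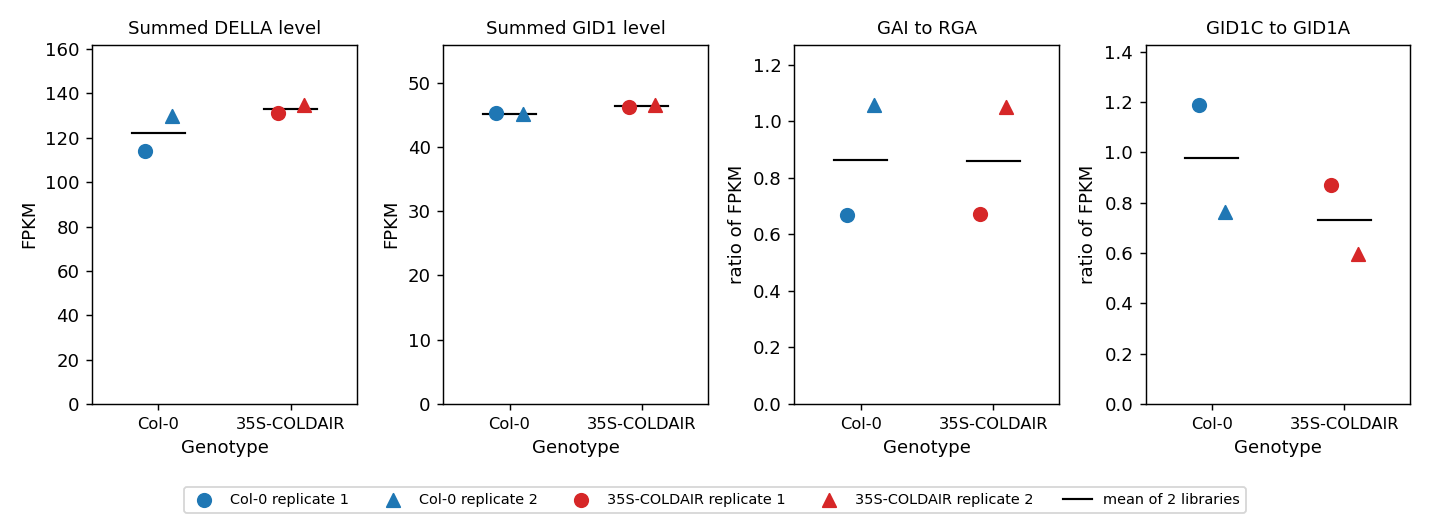
Summed DELLA level and summed GID1 level in FPKM, and the ratios of *GAI* to *RGA* and of *GID1C* to *GID1A* in FPKM, with 1 symbol per library and black lines for the mean of 2 libraries. The summed GID1 level is between 45.1 and 46.6 FPKM in all libraries, and the ratio of *GAI* to *RGA* is 0.67 in both replicate 1 libraries and 1.05 or 1.06 in both replicate 2 libraries.

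The balance between copies within the families differed with the replicate number. The ratio of *GAI* to *RGA* was 0.670 in Col-0 and 0.671 in *35S-COLDAIR* in replicate 1, and 1.06 and 1.05 in replicate 2. Within a replicate number the genotypes thus differed by at most 0.02 on the log2 scale, while replicate 2 exceeded replicate 1 by 0.66 in Col-0 and 0.64 in *35S-COLDAIR*. The ratio of *RGL2* to *RGL1* went the other way, with 0.675 and 0.788 in replicate 1 and 0.435 and 0.495 in replicate 2. The ratio of *GID1C* to *GID1A* differed with the replicate number. It was lower in *35S-COLDAIR* within each replicate number, though the ranges of the genotypes overlapped. In Col-0 it was 1.19 and 0.762, and the *35S-COLDAIR* libraries gave 0.872 and 0.595, a log2 difference between the genotypes of -0.45 in replicate 1 and -0.36 in replicate 2 (two-sided exact permutation p = 0.667 over the 4 libraries). These 3 ratios were chosen after the values had been seen and describe these libraries only. A ratio within a library does not depend on how that library was scaled.

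For 8 of the 9 genes, replicate 2 differed from replicate 1 in the same direction in both genotypes, against 62.5% of all tested genes. The difference on the log2(FPKM + 1) scale was 0.54 in Col-0 and 0.41 in *35S-COLDAIR* for *GAI*, -0.49 and -0.59 for *RGL2*, 0.29 and 0.25 for *GID1A*, -0.32 and -0.27 for *GID1C*, and 0.52 and 0.21 for *SLY1*. *RGA* and *RGL1* were also lower in replicate 2, with -0.10 and -0.22 for *RGA* and -0.06 and -0.10 for *RGL1*. *RGL3* was at 0.46 in Col-0 and 0.02 in *35S-COLDAIR*. The 0.02 of *RGL3* (3.14 and 3.19 FPKM) was within the estimated counting errors of 7.87% and 7.55%. The -0.06 of *RGL1* in Col-0 (4.25 and 4.04 FPKM) was within those of 7.43% and 7.35%. The signs of these differences are therefore not settled, and the count of 8 genes describes these libraries only. *GID1B* was the exception, with 0.00 in Col-0 and -0.08 in *35S-COLDAIR*. The mean size of the replicate difference exceeded the size of the log2 fold change between the genotypes for 6 of the 9 genes, *GAI*, *RGA*, *RGL2*, *GID1A*, *GID1C* and *SLY1*, against 70.8% of all tested genes.

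Genes of the circadian clock moved along the same line. Transcripts of *GID1* genes and of many growth regulators are known to cycle over the day, and the time of harvest is not given in the sources used here. Of the 13 core clock genes listed, the 6 genes *CCA1*, *LHY*, *RVE8*, *LNK1*, *LNK2* and *PRR9*, which peak in the morning, were lower in replicate 2 in both genotypes, with differences between -1.43 and -0.39. The other 7 clock genes, which peak later in the day, were higher in replicate 2 in both genotypes, with differences between 0.13 and 0.79. *CCA1*, a MYB factor of the central loop, was at 51.6 and 27.8 FPKM in the Col-0 libraries, against 44.3 and 23.6 FPKM in those of *35S-COLDAIR*, and *LUX*, a component of the evening complex, at 9.37 and 17 FPKM, against 15.1 and 22.8 FPKM. Between the genotypes, the 7 later clock genes were all higher in *35S-COLDAIR* within both replicate numbers, against 28.2% of all tested genes, *PRR7* by only 0.03 and 0.04. Of the 6 morning genes, *CCA1*, *LHY*, *LNK2* and *PRR9* were lower within both, against 27.0% of all tested genes, and *RVE8* and *LNK1* were not of one sign. The log2 fold changes of the 13 genes ran from -0.59 to 0.52, so their median of 0.03 pools opposite signs. From limma without a block, 0 passed the adjusted threshold or had an unadjusted p under 0.05. With the replicate number as a block, limma gave an unadjusted p under 0.05 for 2 lower genes, *CCA1* and *LHY*, and 2 higher genes, *PRR5* and *LUX*. Over all tested genes that share was 7.98%, and the lowest adjusted p of the 13 genes with the block was 0.443, for *LHY*. The part of harvest time or clock phase in the values of the 9 genes was not tested, and each deposited table holds the libraries of 1 replicate number, so replicate and table cannot be told apart.

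**Figure D4:**
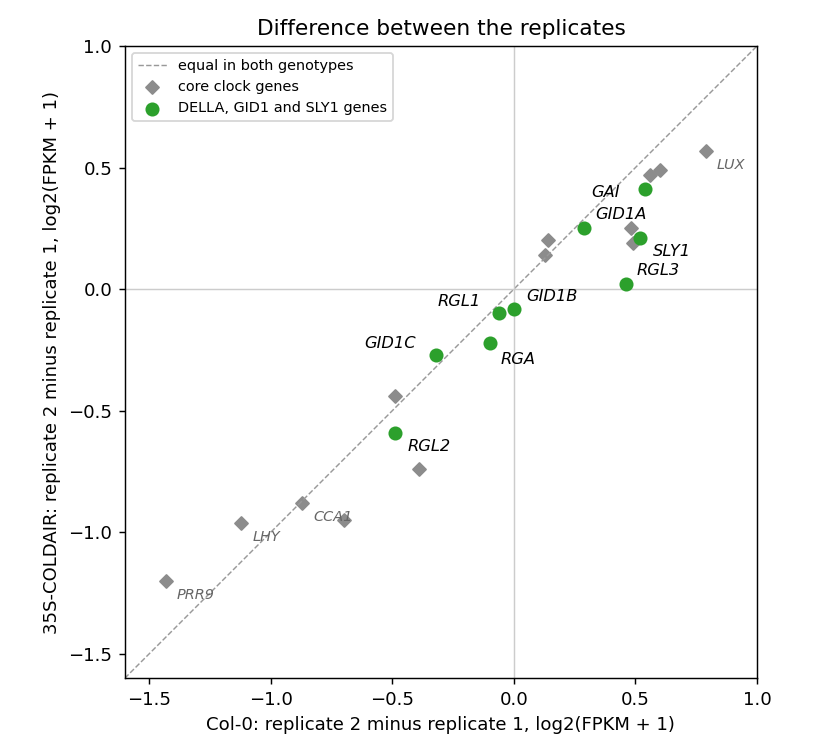
Replicate 2 minus replicate 1 in log2(FPKM + 1), in Col-0 on the horizontal axis and in *35S-COLDAIR* on the vertical axis, for the 9 genes (green circles) and 13 core clock genes (grey diamonds), with a dashed line where both genotypes are equal. *GAI* at 0.54 and 0.41 and *RGL2* at -0.49 and -0.59 lie far from 0 near the dashed line, *GAI* among the clock genes that were higher in replicate 2 and *RGL2* among those that were lower.

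The other listed genes gave no call either. The 73 genes listed outside the 9 are those of gibberellin metabolism, DELLA turnover and response, the factors that DELLA proteins bind, and the other GRAS genes. Of these, 65 were tested, and 0 passed an adjusted p of 0.05 from limma. At an unadjusted p under 0.05, 2 of the 65 were higher and 2 lower, shares above the 1.05% and 1.54% of all tested genes. The lists were chosen with earlier results of these data known, so these counts describe these libraries only. The median log2 fold change of the 65 genes was 0.02. The SCF subunits that work with SLY1 had values near 0. *CUL1*, the scaffold, was at 84.4 and 86.6 FPKM in the Col-0 libraries, against 84.2 and 85.3 FPKM in those of *35S-COLDAIR*, with a log2 fold change of -0.01, and the adaptors *ASK1* and *ASK2* had 0.02 each and *RBX1*, the RING subunit, 0.01. Among the genes whose products modify or bind DELLA proteins, *SPY*, which encodes an O-fucosyltransferase acting on them, had 0.11, with the *35S-COLDAIR* libraries at 16.1 and 17 FPKM above the Col-0 libraries at 14.8 and 15.7 FPKM. *BOI*, a RING-type gene whose product interacts with DELLA proteins, was at 15.5 and 13.1 FPKM in the Col-0 libraries, against 10.2 and 11.1 FPKM in those of *35S-COLDAIR*, with a log2 fold change of -0.39 (unadjusted p = 0.0278 and adjusted p = 1.0 from limma).

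Genes of gibberellin metabolism were measured beside the receptors they supply. In the early steps, *GA3*, which encodes ent-kaurene oxidase, was at 24.8 and 22.8 FPKM in the Col-0 libraries, against 27.4 and 31.8 FPKM in those of *35S-COLDAIR*, with a log2 fold change of 0.30 (unadjusted p = 0.0470 and adjusted p = 1.0 from limma). *GA1*, the gene of the first committed step, was between 0.131 and 0.303 FPKM and under the filter. Of the 9 *GA20ox* and *GA3ox* genes that make active gibberellin, 4 were tested, with log2 fold changes between -0.20 and 0.18 and overlapping groups in each. Of the 7 *GA2ox* genes that inactivate gibberellin, 5 were tested. *GA2OX4* was at 0.333 and 0.440 FPKM in the Col-0 libraries, against 0.921 and 0.887 FPKM in those of *35S-COLDAIR*, with a log2 fold change of 0.46 (unadjusted p = 0.0431 and adjusted p = 1.0 from limma), and *GA2OX6* had -0.20.

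Genes that respond to the pathway were listed by the direction of their response, and none of them passed the adjusted threshold. Of 8 genes that DELLA proteins activate, the log2 fold changes were between -0.12 and 0.61 with a median of 0.01. *SCL3*, a GRAS gene that opposes DELLA function, had 0.08, and *BHLH137* was at 10 and 17.4 FPKM in the Col-0 libraries, against 19.9 and 21.7 FPKM in those of *35S-COLDAIR*, a value of 0.61 (unadjusted p = 0.0732 and adjusted p = 1.0 from limma). *GID1A* and *GID1B*, which DELLA proteins also activate, had 0.20 and 0.11 as given above. Of 7 genes that gibberellin raises, the median log2 fold change was -0.31, against 0.00 over all tested genes, and 6 of the 7 values were below 0. *GASA6*, *PRE1*, *PRE5*, *EXPA8* and *EXPA1* were lower in *35S-COLDAIR* within both replicate numbers, 5 of the 7 genes against 27.0% of all tested genes. The list was chosen with earlier results of these data known, so the count describes these libraries only. *PRE5*, a bHLH gene of the paclobutrazol resistance family, was at 2.23 and 2.28 FPKM in the Col-0 libraries, against 0.469 and 0.753 FPKM in those of *35S-COLDAIR*, with a log2 fold change of -1.02 (95% confidence interval -1.46 to -0.58, unadjusted p = 0.00243 and adjusted p = 1.0 from limma). Its relative *PRE1* was at 20.4 and 15.9 FPKM in the Col-0 libraries, against 13.4 and 14.0 FPKM in those of *35S-COLDAIR*. *GASA1*, a cysteine-rich peptide gene, went the other way with 0.19. The expansin gene *EXPA8* was at 183 and 62.6 FPKM in the Col-0 libraries, against 117 and 38.2 FPKM in those of *35S-COLDAIR*. Its estimate was -0.67, with -0.65 within replicate 1 and -0.70 within replicate 2, while replicate 2 was below replicate 1 by more than that in both genotypes. *GNC* and *GNL*, GATA factor genes that gibberellin lowers, had 0.17 and 0.31, with overlapping groups.

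**Figure D5:**
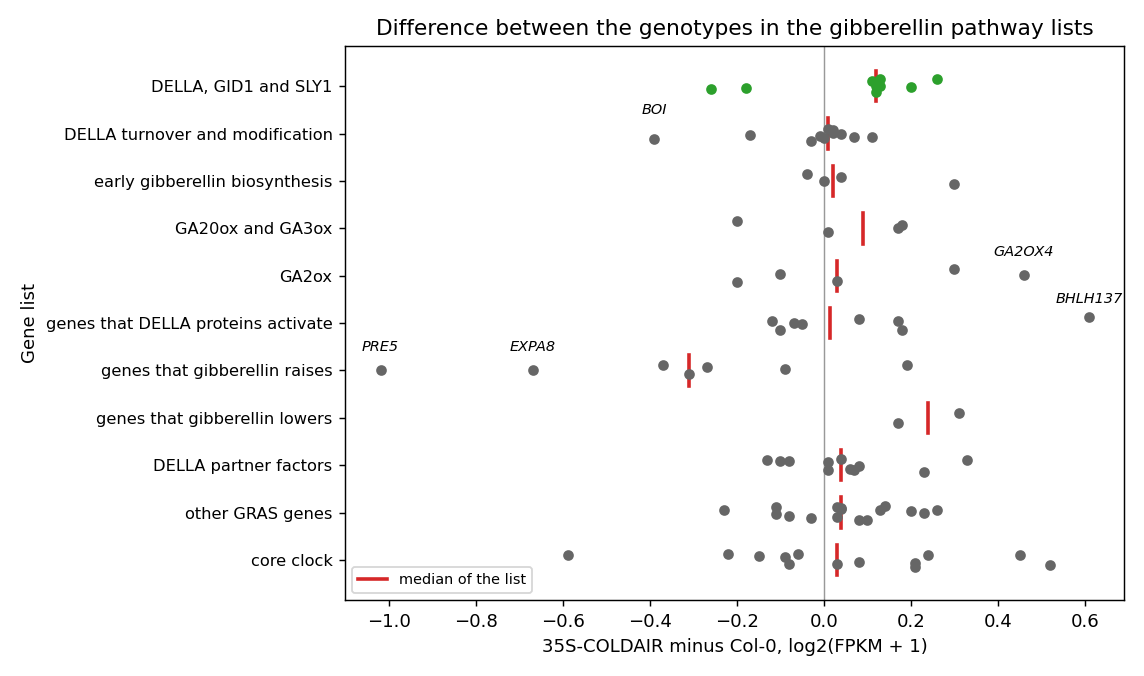
Difference between *35S-COLDAIR* and Col-0 in log2(FPKM + 1) for the tested genes of each list, with 1 point per gene and a red line for the median of the list. The 9 genes described have a median of 0.12, the genes that gibberellin raises have a median of -0.31 with *PRE5* at -1.02, and no gene shown passed the adjusted threshold.

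By the distance over the 4 libraries between log2(FPKM + 1) profiles, the tested genes nearest to the summed DELLA level were AT1G53210 (0.0646), *ALDH2B4* (0.0880) and *GSTF8* (0.0961). Those nearest to the summed GID1 level were *DL1C* (0.0214), AT1G74640 (0.0299) and AT2G01720 (0.0348). The distance is in log2 units and takes in both the level and its variation, and *DL1C*, for example, was at 45.3 and 44.5 FPKM in the Col-0 libraries, against 46.1 and 46.4 FPKM in those of *35S-COLDAIR*.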

How the data were processed

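Poly-A RNA of 2 Col-0 and 2 *35S-COLDAIR* seedling libraries was sequenced in pairs of reads. The authors deposited FPKM values in 2 tables, each holding 1 library of each genotype, and 0 other sample columns were present. The methods name TopHat with TAIR10, up to 2 mismatches allowed, and cuffdiff, whereas the submitters' processing notes name STAR 2.5.2b and Cuffdiff. The annotation, the strand setting and a joint normalization of the tables are not given in the sources used here. Columns were assigned by genotype and replicate number in their own names, which are the reverse of the numbers in the names of the tables.

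Levels were compared as log2(FPKM + 1) with limma 3.58.1 in R 4.3.3 (eBayes with a variance trend, no block, Benjamini-Hochberg adjustment, threshold 0.05) for the 20142 genes whose mean over the libraries reached 0.5 FPKM. Summed levels were compared with exact permutation tests (scipy 1.17.1). The fit was tested on simulated data with known changes. Depth was estimated from single-transcript genes over 2500 bp, as the median of FPKM times length in kb between 0.035 and 0.06. Sequences, positions and lengths are from RefSeq (TAIR10.1), whose transcript lengths may differ from those the authors used. Protein identity was computed with Biopython 1.88.

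The members and lists were chosen with earlier results of these data known. The rule for other genes named the largest rise and fall without overlap in each list and the 3 nearest patterns per family. *SNE*, the SCF subunits, *GA1*, *SCL3*, *PRE1*, *EXPA8*, *GNC*, *GNL*, *CCA1*, *LUX* and the other listed genes named beyond it were chosen after their values were seen.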

Additional observations from a re-analysis of the deposited data

How the results depend on the processing

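No member passed the adjusted threshold under any of the 11 alternatives with a test. *RGA*, *RGL1*, *RGL3*, *GID1A*, *GID1B* and *GID1C* kept their direction under these and under the ratio of means, which has no test, but several estimates came close to 0 without 1 library: the range was 0.02 to 0.24 for *RGA*, 0.07 to 0.17 for *RGL1*, -0.49 to -0.03 for *RGL3*, 0.05 to 0.35 for *GID1A*, 0.07 to 0.15 for *GID1B*, -0.34 to -0.02 for *GID1C* and 0.03 to 0.21 for the summed DELLA level. Leaving out each library once, the log2 fold change ranged from -0.15 to 0.40 for *GAI*, from -0.04 to 0.55 for *RGL2* and from -0.14 to 0.38 for *SLY1*, and the log2 difference of the GID1 to DELLA ratio from -0.18 to 0.01. The genes called over the whole table, 1 higher and 1 lower, became 2 higher without the variance trend and 2 lower with a pseudocount of 0.1 FPKM, and 0 higher and 0 to 1 lower with 1 library left out; the cause was not tested. Both genotypes carry replicate numbers 1 and 2, and same-numbered deviations had a correlation of 0.374 across genes, but no label says that a number marks a shared batch. With the replicate number as a block, 3 genes were called higher and 4 lower, none of them a member. The adjusted p of the members with the block lay between 0.606 for *GID1A*, whose unadjusted p was 0.0419 (95% confidence interval 0.01 to 0.39), and 0.848 for *GID1B*. At an unadjusted p under 0.05, the block gave 10 of the 65 other listed genes against 7.98% of all tested genes. Among the 7 genes that gibberellin raises it gave 5 lower and 1 higher, and these are part of the 10. That list was chosen with earlier results of these data known, so both counts describe these libraries only. For *EXPA8* the limma adjusted p with the block was 0.0867. The log2 ratio of mean FPKM without a pseudocount, added after seeing the data, gave 0.37 for *RGL2* and -0.36 for *RGL3*. The FPKM tables allow no count test, and an estimated 90 to 241 fragments limit the precision of the 3 *RGL* genes.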

Other observations

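The genes of the transcription regulators that DELLA proteins bind gave no call. Of 11 partner genes tested, limma gave 0 at an adjusted p and 0 at an unadjusted p under 0.05. Over all tested genes, 1.05% were higher and 1.54% lower at that unadjusted p, so 0 of 11 says little. The median log2 fold change was 0.04. *PIF4*, a bHLH factor that promotes elongation, had 120 FPKM in each Col-0 library, against 120 and 122 FPKM in those of *35S-COLDAIR*. *JAZ1*, a jasmonate repressor, was at 12.2 and 14.9 FPKM in the Col-0 libraries, against 16.4 and 15.5 FPKM in those of *35S-COLDAIR* (log2 fold change 0.23). *GAF1*, a zinc finger partner of DELLA proteins in activating genes, was at 10.3 and 17.2 FPKM in the Col-0 libraries, against 13.4 and 21.6 FPKM in those of *35S-COLDAIR*, and replicate 2 thus exceeded replicate 1 by 0.69 and 0.65 on the log2(FPKM + 1) scale, as it did for *GAI*.

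The 16 other GRAS genes listed, relatives of the DELLA genes without their N-terminal motif, had log2 fold changes between -0.23 for *LAS*, a regulator of axillary meristems, and 0.26 for *SCL6*, a microRNA-targeted regulator of meristems. Of these, 0 had an unadjusted p under 0.05 from limma, which again says little at the shares over all tested genes. *SHR*, a root patterning gene, was at 9.33 and 9.01 FPKM in the Col-0 libraries, against 9.29 and 9.57 FPKM in those of *35S-COLDAIR*.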
